A study of Mus musculus with 2 samples.

Results

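Trp63, Snai2, Egr2, Id4, Twist2 and Tbx2 are genes of transcription factors linked to the basal, myoepithelial lineage of the mammary gland. Their accessible regions were taken as every peak of either library that overlapped the gene body or lay within 50 kb of an annotated transcription start site (TSS). Peaks of the 2 libraries that overlapped were merged, which left 114 regions at these 6 genes among 275294 in all, from 89 peaks of the DOX library and 99 of the EtOH library. Of the 114 regions, 73 held a peak in both libraries and are called shared, 16 were called with doxycycline alone and 25 without it. Of all 275294 regions, 174940 were shared. How the rest divided between the libraries was not counted. No excess of either library particular to these genes can therefore be read from the 16 and 25, or from such counts for each gene below. The start site of the long, transactivating Trp63 isoforms (upstream promoter) and that of the shorter ΔN isoforms (internal promoter) were kept apart.

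Chromatin accessibility was measured by single-cell ATAC-seq, in which a transposase cuts open DNA and the cuts are counted per nucleus, in organoids grown in Matrigel from mouse mammary tissue. Both groups carried the same 2 alleles on a C57BL/6J background, shTRPS1.34 ki/+, a tetracycline-inducible short hairpin RNA against Trps1, and CAG-rtTA3 tg/+, which places the reverse transactivator under the ubiquitous CAG promoter. Organoids received doxycycline (DOX) at 0.1 µg/ml or its solvent ethanol (EtOH) for 7 days, and each library pooled equal numbers of cells from organoids of several animals, which the files do not keep apart. A figure legend of the study names wild-type animals, whereas the sample labels give the shRNA genotype, and the labels were followed. With 1 library per group a difference between libraries cannot be separated from the treatment, no test was possible, and without a DOX-treated control hairpin the action of doxycycline itself and that of the hairpin cannot be told apart. All intervals are 95% intervals for counting error only.

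The DOX library held 3071 nuclei and 224762118 counts and the EtOH library 3104 nuclei and 211963715 counts, with a median of 75195 and 66701 counts per nucleus and 23 barcodes present in both. Values are given as CPM, the counts per 1000000 counts in shared regions, and differences as log2 of DOX over EtOH, whose median over all shared regions was -0.127. The nuclei formed 7 clusters in regions outside the 6 loci. An immune-like cluster (cluster 3) made up 1262 DOX nuclei (41.1%) and 273 EtOH nuclei (8.80%), and gave 38.8% and 6.88% of the shared counts. Of 6 immune markers, 5 were more accessible in DOX and none was at 0, and their summed level was 244 CPM in DOX and 108 CPM in EtOH, against 83.0 and 79.3 CPM in nuclei outside that cluster. Because this cluster differs so much in size, the ratios of promoters, named regions and summed loci are also given for the nuclei outside it. Its part in the differences over all nuclei was not otherwise tested.

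The other clusters were a luminal progenitor-like cluster 1 (61 DOX and 1630 EtOH nuclei), hormone-sensing luminal-like clusters 4 (91 and 478) and 5 (3 and 493), and unnamed clusters 2 (1544 and 89), 6 (62 and 119) and 7 (48 and 22). In cluster 1, 5 of 8 luminal progenitor markers were higher, with a median log2 fold of 0.52 where a name needed 0.5. Of the measured fibroblast markers, 4 of 5 were also higher there (0.28). No cluster could be called basal-like. Cluster 6 was led by genes that included Krt17, a basal keratin, and 6 of 8 basal markers were higher there, but so were 5 of 5 measured fibroblast markers (median log2 fold 0.81 and 0.89). In cluster 2, 6 of 8 basal markers were higher (median log2 fold 0.47), but so were 6 of 8 hormone-sensing luminal (0.34), 6 of 8 luminal progenitor (0.17) and 5 of 5 fibroblast markers (0.096).

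p63, the product of Trp63, is the p53-family factor that maintains the basal layer of stratified and glandular epithelia. Its internal promoter is the main start site in basal cells and gives ΔN isoforms that activate basal keratins, integrins and laminins. SNAI2 is a zinc-finger repressor that binds E-boxes and acts in basal identity and in epithelial-mesenchymal transition. TWIST2 is a basic helix-loop-helix factor that binds E-boxes with E proteins, and ID4 is a helix-loop-helix protein without a DNA-binding region that blocks such pairs and is used as a marker of basal mammary stem cells. TBX2 is a T-box repressor of mammary development, and EGR2 is a zinc-finger factor induced by growth signals that is also known from myelinating glia and macrophages.

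The sequences of the regions on which the results turn are given first, as the central 300 bases of each region on the + strand of GRCm38.p6, the patch release of mm10. They are the region at the internal Trp63 promoter (chr16:25802893-25803192), the Trp63 regions with the most counts (chr16:25780055-25780354) and the lowest ratio (chr16:25865544-25865843), the Twist2 region with the lowest ratio (chr1:91823600-91823899) and the Egr2 region with the highest ratio (chr10:67518816-67519115). The last is the stretch of 250 bases before the Twist2 start site in RefSeq (chr1:91801211-91801460), shown because a peak was called there in DOX only. Capitals mark CAGGTG, the E-box bound by SNAI2, and TGAGTCA, the AP-1 site TGACTCA read on the other strand.
Trp63 internal promoter: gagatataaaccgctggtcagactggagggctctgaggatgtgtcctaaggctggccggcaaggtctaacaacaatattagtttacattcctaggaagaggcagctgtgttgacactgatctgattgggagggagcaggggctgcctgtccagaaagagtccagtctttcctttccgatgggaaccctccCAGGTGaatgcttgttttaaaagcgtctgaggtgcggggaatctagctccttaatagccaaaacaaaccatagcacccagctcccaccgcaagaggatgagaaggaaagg
Trp63 most counts: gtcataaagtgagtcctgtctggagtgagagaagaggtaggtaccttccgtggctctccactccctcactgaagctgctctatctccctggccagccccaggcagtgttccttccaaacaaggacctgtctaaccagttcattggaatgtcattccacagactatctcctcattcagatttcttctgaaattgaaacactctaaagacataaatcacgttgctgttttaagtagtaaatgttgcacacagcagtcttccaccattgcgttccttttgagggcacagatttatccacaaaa
Trp63 lowest ratio: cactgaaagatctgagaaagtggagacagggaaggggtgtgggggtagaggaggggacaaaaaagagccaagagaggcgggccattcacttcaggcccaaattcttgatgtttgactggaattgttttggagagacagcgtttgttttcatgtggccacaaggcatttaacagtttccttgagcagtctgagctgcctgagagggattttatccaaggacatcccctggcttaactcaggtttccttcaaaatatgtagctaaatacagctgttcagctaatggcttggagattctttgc
Twist2 lowest ratio: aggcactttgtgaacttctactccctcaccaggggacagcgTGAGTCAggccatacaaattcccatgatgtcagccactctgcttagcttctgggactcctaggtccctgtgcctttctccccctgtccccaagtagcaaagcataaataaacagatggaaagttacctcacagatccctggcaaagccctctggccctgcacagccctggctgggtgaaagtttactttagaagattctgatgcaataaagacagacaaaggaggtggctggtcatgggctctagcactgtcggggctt
Egr2 highest ratio: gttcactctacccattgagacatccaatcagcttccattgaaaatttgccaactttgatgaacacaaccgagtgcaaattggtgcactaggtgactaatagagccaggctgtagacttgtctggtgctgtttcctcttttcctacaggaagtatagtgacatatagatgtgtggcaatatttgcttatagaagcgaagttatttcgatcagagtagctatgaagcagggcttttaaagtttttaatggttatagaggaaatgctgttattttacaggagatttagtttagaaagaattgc
Twist2 promoter: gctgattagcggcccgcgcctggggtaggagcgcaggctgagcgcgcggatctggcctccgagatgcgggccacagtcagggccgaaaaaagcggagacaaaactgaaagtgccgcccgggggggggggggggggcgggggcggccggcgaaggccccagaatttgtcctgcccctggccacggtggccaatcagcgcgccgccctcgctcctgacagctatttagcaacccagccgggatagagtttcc

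Over all nuclei, 20 of the 73 shared regions (27.4%) were at least 2-fold lower in DOX and 4 (5.48%) at least 2-fold higher. Over all shared regions with at least 100 counts, 13.4% were lower and 13% higher by this rule. The median log2 ratio of the 73 regions was -0.24. The counting interval lay above 0 for 14 regions, below 0 for 42 and spanned 0 for 17, and it lay above 0 for 30.6% and below 0 for 42.4% of all shared regions. Outside the immune-like cluster 71 regions kept 100 counts, of which 11 (15.5%) were at least 2-fold lower and 2 (2.82%) higher, against 8.39% and 5.38% of all regions, and the median was -0.039 against -0.056 for all regions. Of the 20 regions lower over all nuclei, 10 were also lower by 2-fold outside the immune-like cluster, and of the 4 higher regions 1 was also higher there. Trp63 held 9 of the 20 lower regions and Egr2 all 4 higher regions. Without Trp63, 11 of 47 shared regions (23.4%) were lower.

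**Figure D1:**
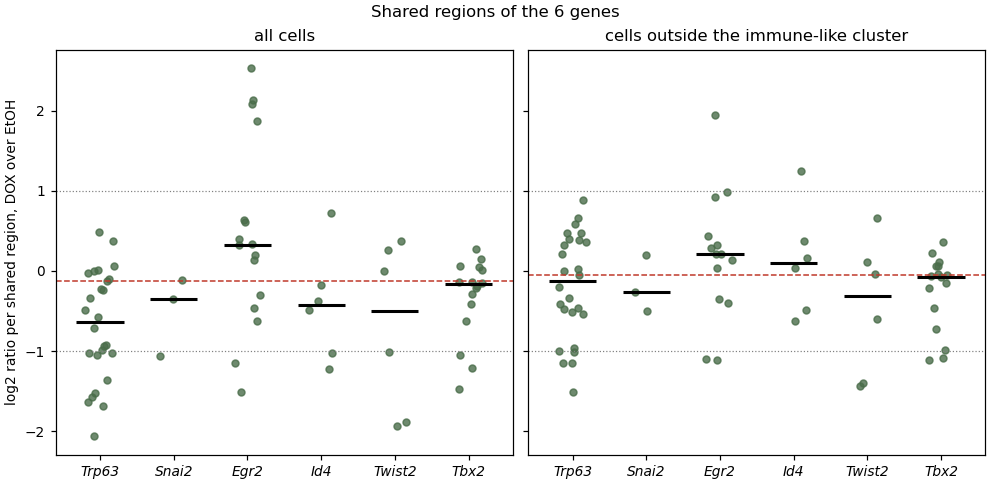
Log2 ratio of DOX over EtOH for each shared region (points) of the 6 genes, over all nuclei (left) and over nuclei outside the immune-like cluster (right). Black bars are the median of a gene, the dashed line the median of all shared regions and dotted lines a 2-fold difference. The 4 points above 1 on the left are Egr2 regions, and the Trp63 median moves from -0.64 on the left to -0.13 on the right.

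Trp63 (ENSMUSG00000022510.14, chr16:25683763-25892102, + strand) had 33 regions, of which 26 were shared. No region was called in either library within 2 kb of the upstream start site at position 25683763, and the nearest region lay 9450 bp away. The internal start site at position 25801916, 118.153 kb downstream, had no peak over it, but a region with its edge 597 bp downstream, in an intron of the long isoforms (chr16:25802513-25803574). This region held 134 counts in DOX and 324 in EtOH, or 0.631 CPM (0.489 to 0.801) and 1.61 CPM (1.38 to 1.88). It was lower in DOX, with a log2 ratio of -1.36 (-1.79 to -0.94), and at -0.96 (-1.42 to -0.52) outside the immune-like cluster. Of all protein-coding promoters 1.67% were at least 2-fold lower and 3.43% higher over all nuclei, and outside the immune-like cluster 0.781% were lower and 0.781% higher. At these low counts, 68 of 3071 DOX nuclei (2.21%) and 137 of 3104 EtOH nuclei (4.41%) had a count in the region, at median depths of 69693 and 63508 counts in shared regions. With a promoter taken as 2 kb on either side, a further region entered and the ratio over all nuclei was -0.50 (-0.69 to -0.31). That further region held 659 and 734 counts, with a log2 ratio of -0.24 over all nuclei. Outside the immune-like cluster it was higher in DOX, at 0.32 (0.095 to 0.54), with 627 and 723 counts. The lower ratio of the promoter outside that cluster therefore holds for the 1 kb promoter, and the 2 kb promoter was not computed there.

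By cluster, the internal promoter region had its highest CPM in clusters 4, 5 and 6. It stood at 2.98 CPM in DOX and 3.72 CPM in EtOH in cluster 4, and at 2.64 CPM in EtOH in cluster 5. In cluster 6 it stood at 3.27 (1.45 to 6.31) and 1.85 CPM (0.822 to 3.57), on 17 counts in each library. The luminal progenitor-like cluster had 0.796 CPM (0.574 to 1.08) in EtOH, which overlapped cluster 6, and 3 counts in DOX. Cluster 2 had 0.655 CPM in DOX and 2 counts in EtOH. Clusters 4 and 5 together held 94 DOX nuclei and 971 EtOH nuclei, and within cluster 4 the counting intervals of the libraries overlapped. With finer clusters (Leiden resolution of 1), a further hormone-sensing luminal-like cluster held 222 DOX and 2 EtOH nuclei. The internal promoter region stood there at 1.25 CPM (0.645 to 2.18) in DOX.

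Of the 26 shared Trp63 regions, 9 (34.6%) were at least 2-fold lower, none was 2-fold higher, and 18 had an interval below 0. Of all shared regions 13.4% were lower, 13% were higher and 42.4% had an interval below 0. Outside the immune-like cluster 5 Trp63 regions (19.2%) were 2-fold lower, against 8.39% of all shared regions. There 7 Trp63 regions had an interval above 0 and 12 below it, against 22.5% and 31% of all shared regions. The lowest region, 63.8 kb downstream of the internal start site (chr16:25865238-25866150, overlapping an exon), fell from 656 counts in EtOH to 166 in DOX, or from 3.27 to 0.781 CPM (log2 -2.06, -2.43 to -1.71, and -1.51 outside the immune-like cluster). The next was the region 88.5 kb downstream, at the last exon, with 141 counts in DOX and 428 in EtOH (log2 -1.68, -2.09 to -1.29, and -1.15 outside the immune-like cluster). A region 9.96 kb before the upstream start site held 410 counts in DOX and 1148 in EtOH (log2 -1.57, and also at least 2-fold lower outside the immune-like cluster), and was the nearest to that start site. The 9 lower regions lay across the whole locus, the internal promoter region among them. The region with the most counts, 21.7 kb before the internal start site in an intron (chr16:25779758-25780653), held 2496 counts in DOX and 2757 in EtOH, or 11.7 and 13.7 CPM. Its log2 ratio was -0.23 (-0.34 to -0.11) over all nuclei and 0.37 (0.25 to 0.48) outside the immune-like cluster, so its direction depended on whether immune-like nuclei were counted. The highest ratio, 0.49 (-0.04 to 1.03), belonged to a region 48.1 kb before the internal start site (153 counts in DOX, 103 in EtOH), and the next, 0.37 (-0.06 to 0.81), to one 3.25 kb after it with 214 and 156 counts. Outside the immune-like cluster the first was higher in DOX, at 0.88 (0.33 to 1.44), and the second was at -0.051.

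**Figure D2:**
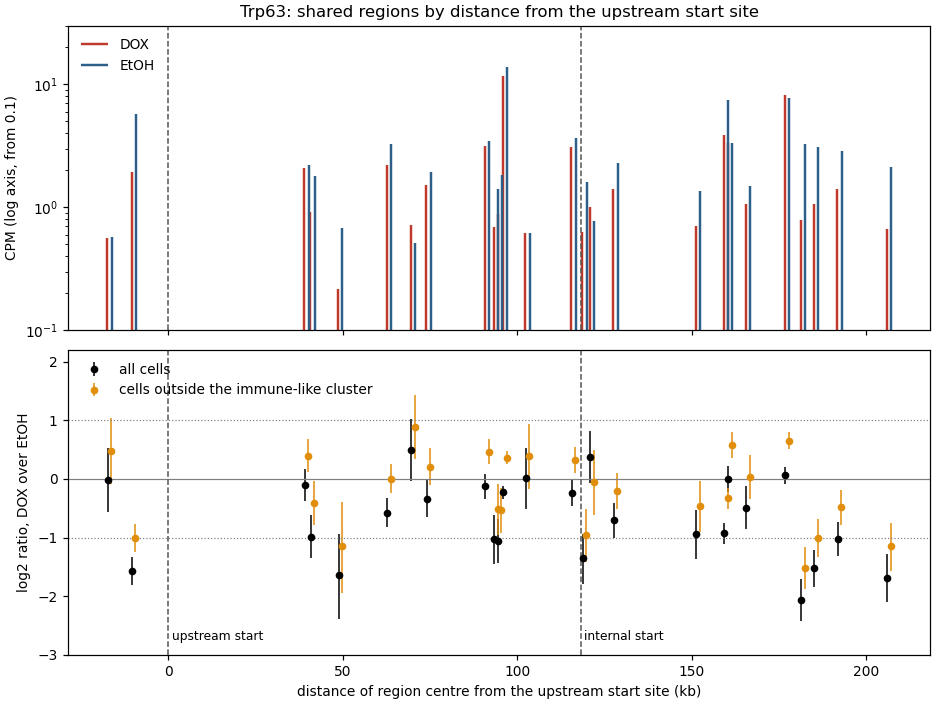
Shared regions of Trp63 by distance of their centre from the upstream start site in kb, with CPM on a log axis (top) and the log2 ratio of DOX over EtOH with 95% counting intervals (bottom). Dashed lines mark both start sites, and dotted lines a 2-fold difference. No region lies at the upstream start site, and the ratios outside the immune-like cluster (orange) lie above those of all nuclei (black) at all regions except the one 3.25 kb after the internal start site.

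Summed over its shared regions, Trp63 held 11577 counts in DOX and 15836 in EtOH, or 54.5 and 78.9 CPM (log2 -0.53, -0.58 to -0.48). Outside the immune-like cluster the sums were 85.2 and 84.2 CPM, and the log2 ratio 0.017 (-0.033 to 0.067) did not differ from 0 beyond counting error. The immune-like cluster itself had 6.04 CPM in DOX and 6.73 CPM in EtOH and gave 4.30% of the DOX counts. Cluster 6 stood highest, at 161 CPM in DOX and 162 in EtOH, and clusters 1 and 4 lay between 76.0 and 88.4 CPM in both libraries. With every nucleus thinned to 10000 counts, 74.2% (61.5 to 84.5) of DOX and 80.7% (72.4 to 87.3) of EtOH nuclei of cluster 6 had a count at Trp63, against 4.69% and 4.81% of immune-like nuclei, which serve as the background here. The other clusters lay between, at 51.0% and 47.7% in cluster 1, 52.4% and 35.7% in cluster 2, and 51.3% in EtOH in cluster 5. Cluster 4 had 62.9% (52.0 to 72.9) in DOX, which overlapped cluster 6, and 48.7% in EtOH. Unthinned, the shares were 98.4% and 97.5% in cluster 6 and 15.7% and 13.6% in the immune-like cluster, at median depths of 91777, 76098, 68912 and 52327 counts.

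Single Trp63 regions differed in the clusters where they were open. The region 48.0 kb after the internal start site was most open in cluster 6, at 19.4 CPM (14.4 to 25.6) in DOX and 18.1 CPM (14.5 to 22.5) in EtOH, against 0.206 to 3.40 CPM in the other clusters. The region 41.8 kb after it stood at 23.2 and 26.4 CPM in cluster 6 and at 7.05 and 7.75 CPM in cluster 1. The region before the upstream start site followed another order, with 11.2 and 15.1 CPM in cluster 4, 14.0 CPM in EtOH in cluster 5, 5.19 and 5.65 CPM in cluster 6, and 0.654 CPM in EtOH and no count in DOX in cluster 1. In EtOH, ranked among clusters 1, 4, 5, 6 and the immune-like cluster only, 13 of the 26 regions were most open in cluster 6. Of the rest, 9 were most open in cluster 4 or 5, 4 in cluster 1 and none in the immune-like cluster. The same counts over all shared regions were not made, so these are not shown to be particular to Trp63. They took the highest CPM whatever the counting intervals, some of which overlapped. The region 49.3 kb after the upstream start site had 1.30 CPM (0.478 to 2.84) in cluster 6 and 0.787 CPM (0.566 to 1.07) in cluster 1.

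Snai2 (ENSMUSG00000022676.7, chr16:14705852-14709385, + strand) had 6 regions, 3 of them shared and 3 called in EtOH only. Its promoter region held 4212 counts in DOX and 4315 in EtOH, or 19.8 and 21.5 CPM. The log2 ratio of -0.12 (-0.20 to -0.03) lay near the median of all regions, became 0.0098 when that median was set to 0, and was 0.20 (0.11 to 0.29) outside the immune-like cluster, so no direction can be given for it. The region 4.33 kb upstream held 739 and 887 counts (log2 -0.35, -0.55 to -0.14, and -0.26 outside the immune-like cluster). The region 30.6 kb downstream held 359 and 705 counts and was 2-fold lower (log2 -1.06, -1.32 to -0.79), and at -0.49 outside the immune-like cluster. It was most open in cluster 6 (10.8 CPM in DOX and 14.2 in EtOH) and cluster 4 (6.22 and 7.53), and nearly closed in cluster 1 (0.321 and 0.455). Summed over the locus, Snai2 stood at 24.99 CPM in DOX and 29.4 CPM in EtOH, with a log2 ratio of -0.24 over all nuclei and 0.069 outside the immune-like cluster. Its sum was again highest in cluster 6 (50.3 and 52.7 CPM) and lowest in the immune-like cluster (13.6 and 12.0 CPM). In cluster 4 it was higher in DOX, at 41.8 against 32.3 CPM (log2 0.37, 0.10 to 0.63).

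Twist2 (ENSMUSG00000007805.4, chr1:91801461-91848028, + strand) had 15 regions, of which 6 were shared. A peak over its start site (chr1:91801217-91802018) was called in DOX only, with 383 counts. The EtOH matrix has no value for it, so no ratio can be given. Among the shared regions the one with the most counts was also the lowest, a region 22.3 kb into the gene in an intron (chr1:91823247-91824253) with 797 counts in DOX and 2884 in EtOH, or 3.75 and 14.4 CPM (log2 -1.94, -2.10 to -1.78). It remained lower outside the immune-like cluster (-1.40). Its neighbour 15.4 kb into the gene held 255 and 889 counts (log2 -1.88, -2.18 to -1.60, and -1.43 outside the immune-like cluster). Both were most open in clusters 4 and 5. The first had 18.5 CPM in DOX and 17.7 in EtOH in cluster 4, 25.3 CPM in EtOH in cluster 5, and 12.3 CPM in EtOH in cluster 1. The second had 13.4 and 11.5 CPM in cluster 4 and 9.27 CPM in EtOH in cluster 5. Within cluster 4 neither was lower in DOX. The highest ratios were 0.37 (0.12 to 0.62) at the region 42.2 kb upstream, with 635 and 463 counts, and 0.26 (-0.19 to 0.72) at the one 17.9 kb into the gene, with 189 and 149 counts, and outside the immune-like cluster 0.67 and 0.12. A further 2-fold lower region lay 31.1 kb upstream, with 352 and 668 counts (log2 -1.01, and -0.60 outside the immune-like cluster).

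Summed over its shared regions, Twist2 was the member with the lowest ratio, at 13.8 CPM in DOX and 28.5 CPM in EtOH (log2 -1.05, -1.14 to -0.96). The log2 ratio was -0.76 (-0.86 to -0.66) outside the immune-like cluster, at 17.8 and 30.2 CPM. Of all protein-coding gene windows of this kind 1.01% were at least 2-fold lower over all nuclei, and 0.331% outside the immune-like cluster. By cluster, Twist2 stood at 45.4 CPM in DOX and 41.0 in EtOH in cluster 4, 47.7 CPM in EtOH in cluster 5, 17.6 and 21.9 CPM in cluster 1, 15.2 and 14.99 CPM in cluster 6 and 7.43 and 5.50 CPM in the immune-like cluster. The 2 clusters in which Twist2 was most open held 94 DOX nuclei and 971 EtOH nuclei. In cluster 2 it was lower in DOX, at 16.2 against 31.7 CPM (log2 -0.97, -1.51 to -0.37), where the 89 EtOH nuclei had a median of 12697 counts against 72441 in the DOX nuclei.

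Id4 (ENSMUSG00000021379.2, chr13:48261228-48266026, + strand) had 13 regions, 6 of them shared and 6 called in EtOH only, among the latter a region 1.57 kb after the start site with 1071 counts. Its promoter region held 6815 counts in DOX and 8316 in EtOH, or 32.1 and 41.4 CPM (log2 -0.37, -0.44 to -0.30). Outside the immune-like cluster the ratio was reversed, at 0.16 (0.09 to 0.22). The lowest regions lay 41.1 kb upstream, with 128 and 283 counts (log2 -1.23, -1.68 to -0.79), and 39.2 kb upstream, with 254 and 488 counts (log2 -1.02, -1.35 to -0.71). Neither was 2-fold lower outside the immune-like cluster, at -0.62 and -0.48. A region 23.5 kb upstream was higher in DOX, with 722 and 414 counts (log2 0.72, 0.47 to 0.97), and more so outside the immune-like cluster (1.24, 0.99 to 1.503), where it was 1 of the 2 member regions past 2-fold. The next highest ratio was that of the region 12.6 kb downstream (1160 and 1240 counts, log2 -0.18, and 0.38 outside the immune-like cluster). Summed, Id4 stood at 61.9 CPM in DOX and 80.3 CPM in EtOH (log2 -0.38, and 0.15 outside the immune-like cluster). It was nearly closed in the immune-like cluster (9.51 and 10.2 CPM) and open in clusters 6 (103 and 113 CPM) and 1 (99.4 and 95.3 CPM), and cluster 4 lay below both (60.9 and 56.2 CPM).

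Tbx2 (ENSMUSG00000000093.6, chr11:85832551-85841948, + strand) had 23 regions, of which 16 were shared, and its window reaches into the neighbouring genes Bcas3 and Gm11444. Its promoter regions held 1403 counts in DOX and 1273 in EtOH, or 6.60 and 6.34 CPM, with log2 ratios of 0.058 (-0.10 to 0.22) over all nuclei and -0.14 (-0.34 to 0.055) outside the immune-like cluster, so that the sign turned while both intervals spanned 0. The lowest region, 39.6 kb upstream in the body of Bcas3, held 802 and 2102 counts, or 3.77 and 10.5 CPM (log2 -1.47, -1.64 to -1.30, and -0.99 outside the immune-like cluster). It stood at 25.6 CPM in DOX and 27.5 in EtOH in cluster 4 and 23.6 CPM in EtOH in cluster 5, with 1.73 CPM in EtOH and no count in DOX in cluster 1. A region 44.6 kb upstream held 130 and 284 counts (log2 -1.21, -1.66 to -0.78, and -1.09 outside the immune-like cluster). The highest ratio was that of the region 20.0 kb upstream, with 2075 and 1625 counts (log2 0.27, 0.14 to 0.40). Immune-like nuclei gave 79.6% of its DOX counts, and outside them it was lower in DOX (log2 -1.11, -1.34 to -0.89). The next, at the start site of Bcas3, held 1290 and 1101 counts (log2 0.15, -0.02 to 0.31, and 0.061 outside the immune-like cluster). The region with the most counts, 12.1 kb downstream, held 3918 and 4505 counts (log2 -0.28, -0.37 to -0.20, and -0.15 outside the immune-like cluster). Summed, Tbx2 stood at 92.7 and 109 CPM (log2 -0.23, and -0.19 outside the immune-like cluster) and ranged from 86.7 to 129 CPM over the clusters.

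Egr2 (ENSMUSG00000037868.15, chr10:67535475-67542188, + strand) was the only member whose summed log2 ratio lay above 0 over all nuclei. Outside the immune-like cluster Id4 also lay above 0, at 0.15 (0.11 to 0.20) beside 0.19 for Egr2. There the intervals of Trp63 and Snai2 spanned 0, and those of Twist2 and Tbx2 lay below 0. Egr2 had 24 regions, of which 16 were shared, and its window reaches the neighbouring gene Ado. Its promoter regions held 13808 counts in DOX and 11749 in EtOH, or 65.0 and 58.5 CPM (log2 0.15, 0.10 to 0.20, and 0.16 outside the immune-like cluster). Of the 16 shared regions 11 had an interval above 0 and 4 below, against 30.6% and 42.4% of all shared regions. At least 2-fold higher were 4 of the 16 (25%), against 13% of all, and 2 (12.5%) were lower, against 13.4%. The highest, 16.5 kb upstream (chr10:67518506-67519426), held 880 counts in DOX and 144 in EtOH, or 4.14 and 0.717 CPM (log2 2.53, 2.17 to 2.91). Immune-like nuclei gave 95.3% of its DOX counts, where it stood at 10.2 CPM in DOX and 7.24 in EtOH, against at most 0.652 CPM in any other cluster and library, and outside them the ratio did not differ from 0 (log2 0.42, -0.52 to 1.36). The regions 41.4 kb downstream (1172 and 253 counts, log2 2.13) and 31.7 kb upstream (602 and 134 counts, log2 2.09) likewise had 98.2% and 88.2% of their DOX counts in immune-like nuclei and ratios of -0.78 (-1.97 to 0.30) and 0.21 (-0.47 to 0.89) outside them. Within the immune-like cluster itself, 2 of the 4 higher regions had an interval above 0.

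The other 2-fold higher region, 27.6 kb downstream of Egr2, held 1141 counts in DOX and 294 in EtOH (log2 1.87, 1.61 to 2.15). It was as much higher outside the immune-like cluster (1.94, 1.61 to 2.28). By cluster it stood at 3.85 CPM in DOX and 0.938 CPM in EtOH in cluster 1 (log2 2.04, 0.52 to 3.26), at 4.15 and 1.13 CPM in cluster 2 and at 9.61 and 5.87 CPM in cluster 6. The lowest Egr2 region, 5.58 kb upstream, held 369 and 995 counts (log2 -1.51, -1.76 to -1.27, and -1.12 outside the immune-like cluster). It had 10.8 CPM in DOX and 10.7 in EtOH in cluster 4 and 12.8 CPM in EtOH in cluster 5. The region 41.7 kb upstream held 184 and 385 counts (log2 -1.15, and -1.10 outside the immune-like cluster). Summed, Egr2 stood at 147 CPM in DOX and 122 CPM in EtOH (log2 0.27, and 0.19 outside the immune-like cluster). Unlike Trp63, Snai2, Id4 and Twist2, it was most open in the immune-like cluster (166 CPM in DOX and 167 CPM in EtOH), which gave 43.7% of its DOX counts.

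**Figure D3:**
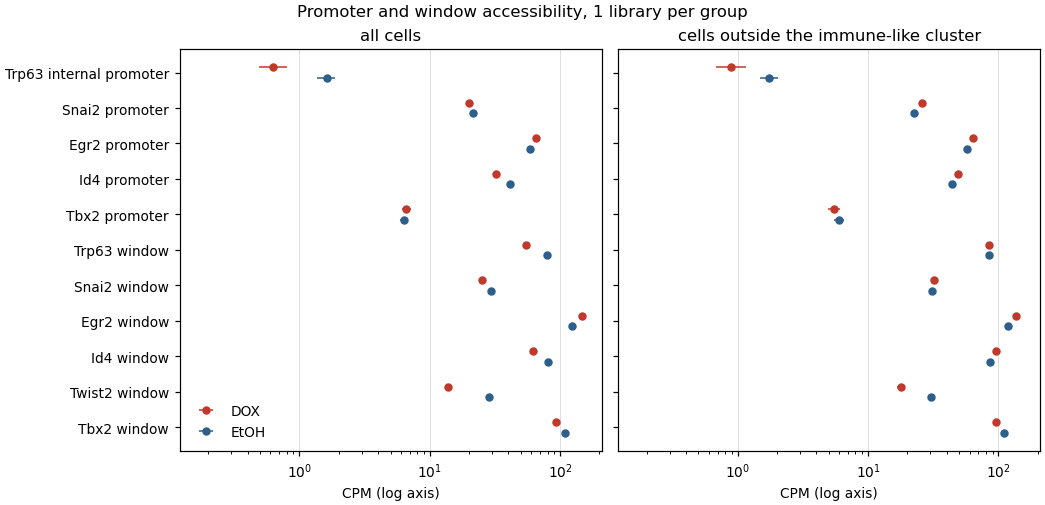
Accessibility in CPM (log axis) of the promoters and of the summed shared regions of each gene in DOX (red) and EtOH (blue), 1 library per group, over all nuclei (left) and outside the immune-like cluster (right), with 95% counting intervals. The DOX point lies left of the EtOH point for Twist2 in both panels (13.8 and 28.5 CPM over all nuclei), while the points of Trp63 nearly coincide on the right (85.2 and 84.2 CPM). Levels of different genes are sums over windows of different size and are not compared.

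Across the clusters the 6 genes differed in where they were most open. Since no cluster could be called basal-like, their common label as basal factors could not be checked against a basal cluster. Trp63, Snai2 and Id4 were most open in cluster 6 in both libraries, the cluster with basal and fibroblast markers. Twist2 was most open in cluster 4 or 5, Egr2 in the immune-like cluster, and Tbx2 in cluster 4 in both libraries. For Id4 in DOX, and for Snai2 and Tbx2 in both libraries, the counting interval overlapped that of the next cluster. For Snai2 in EtOH the next was the shallow cluster 2. Over the 11 groups of 1 cluster and 1 library with at least 50 nuclei, the log2 accessibility of Trp63 correlated with that of Id4 at r = 0.97 and of Snai2 at r = 0.96, with Twist2 at 0.65, with Tbx2 at 0.56 and with Egr2 at -0.76. These groups share libraries, and the immune-like groups stand far from the rest for Trp63, so the coefficients are descriptions only.

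**Figure D4:**
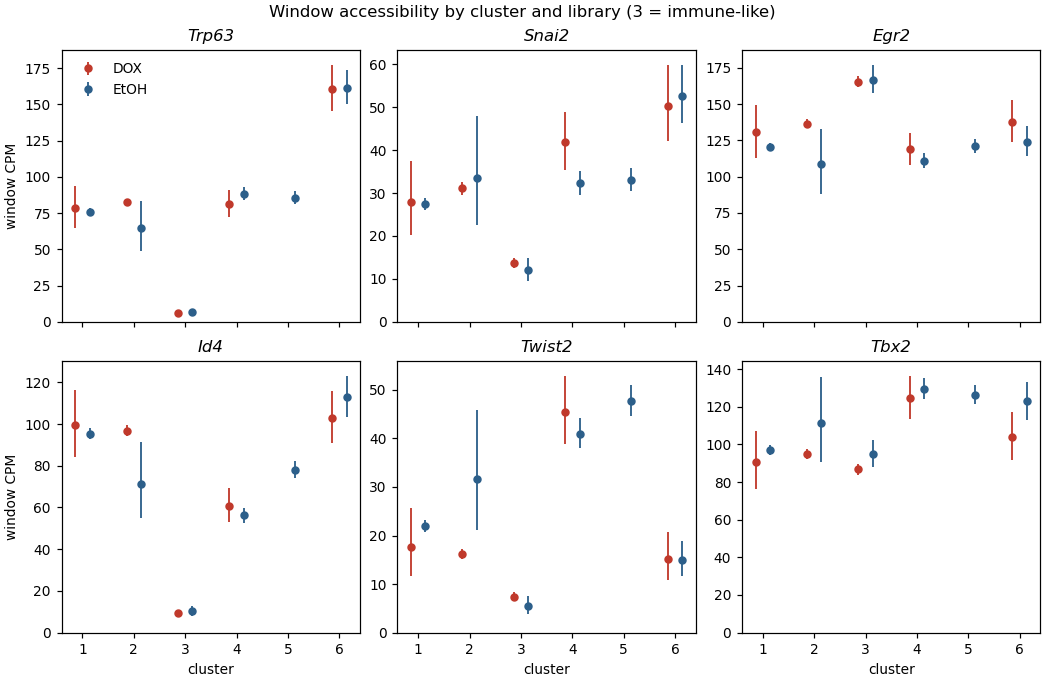
Summed accessibility of each gene in CPM by cluster in DOX (red) and EtOH (blue) with 95% counting intervals, for clusters and libraries with at least 50 nuclei. Trp63 is near 161 CPM in cluster 6 and near 6 CPM in the immune-like cluster 3 in both libraries, Twist2 is highest in clusters 4 and 5, and Egr2 is highest in cluster 3.

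Of 30 ratios of a gene in a cluster with at least 50 nuclei in both libraries, 6 had a counting interval that excluded 0. The same count over all genes was not made. Beside Snai2 in cluster 4 and Twist2 in cluster 2 these were Egr2 and Id4 in cluster 2 (log2 0.33 and 0.44) and Tbx2 in the immune-like cluster and in cluster 6 (log2 -0.13 and -0.24). All 3 ratios of cluster 2 rest on shallow EtOH nuclei, with a median of 12697 counts. Of the 20 regions that were 2-fold lower over all nuclei, none had an interval below 0 in cluster 1 or 6, 1 in cluster 4, 2 in cluster 2 and 2 in the immune-like cluster, at the lower counts of single clusters. In EtOH 9 of these 20 regions (45%) were most open in cluster 4 or 5, 6 in cluster 6 and 5 in cluster 1, against 15 of the 49 regions (30.6%) that were neither 2-fold lower nor higher. Of the 4 higher regions, 2 had an interval above 0 in the immune-like cluster, 1 in cluster 1 and none in clusters 2, 4 or 6. All 4 higher regions were most open in the immune-like cluster in EtOH, and DOX was not ranked in this way. The ranking took in clusters 1, 4, 5, 6 and the immune-like cluster, and cluster 2 was left out of it. It used the highest CPM whatever the counting intervals, so near ties are counted too. How all shared regions divide among these clusters was not counted.

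The genes whose summed accessibility followed each member most closely over the 11 groups were Casq2, Tpbg and Ptpn14 for Trp63 (r from 0.995 to 0.997), Iqschfp, Gpr161 and Fibcd1 for Snai2 (0.988 to 0.992), and Inhbb, Epb41l4a and Gab1 for Id4 (0.996 to 0.997). For Twist2 they were Slc22a23, Agtr1a and Znhit6 (r of at least 0.97), for Tbx2 Scn3a, Lrrk1 and Klk7 (0.956 to 0.971), and for Egr2 Gatc, Triap1 and Srsf9 (0.976 to 0.977). Gatc and Triap1 had an identical r, and whether their windows hold the same regions was not checked. Each set was picked as the highest among all protein-coding genes over few groups, so high coefficients follow from the choice and are descriptions only.

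Of 14 relatives of the members, 13 had a shared promoter region. The counting interval lay above 0 for 6 and below 0 for 4, against 53.8% and 24.3% of all promoters, none differed 2-fold, and the median log2 ratio was 0.085, beside 0.093 over all promoters. The highest were Egr3 (0.39), Id3 (0.31) and Id2 (0.24), and the lowest Tbx5 (-0.69), Tbx3 (-0.52) and Twist1 (-0.25). With immune-like nuclei left out, 8 lay above and none below, against 25.3% and 16.6% of all promoters. There Egr3 was at 0.55, Id3 at 0.23, Id2 at 0.032, Tbx5 at -0.27 and Twist1 at -0.18, and Tbx3, a T-box factor of mammary bud formation, was at 0.052. Of 20 genes listed as p63 targets, 19 had a shared promoter region and Krt5 had none. Of these, 12 had an interval below 0 and 5 above, none differed 2-fold, and the median was -0.40. Among the lowest were Lama3 (-0.73) and Lamb3 (-0.71), which encode laminin-332 chains of the basement membrane, and the highest were the Notch ligand gene Jag2 (0.48), Col17a1 (0.26, -0.11 to 0.63) and Fgfr2 (0.17). With immune-like nuclei left out, 9 lay above and 3 below, with a median of 0.077 beside 0.018 over all promoters. There Jag2 was at 0.51, Fgfr2 at 0.16, Krt14, a basal keratin, at 0.69 and Col17a1 at -0.39 (-0.90 to 0.099), whereas Lama3 (-0.35) and Lamb3 (-0.25) had intervals below 0.

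Sequence strings bound by the members' families, and those of AP-1 and GATA factors, were looked for, on either strand, in the middle 300 bp of the 73 shared regions. The p63 core, a pair of CATG boxes 6 bases apart, was in none of them and in 0.828% of all shared regions. The E-box CAGGTG was in 17 regions (23.3%, against 22.1% of all), among them the internal Trp63 promoter region printed above, and any E-box CANNTG, which includes it, in 60 (82.2% against 80.6%). The T-box string AGGTGTGA was in 2 regions, both of Trp63 (2.74% against 1.29%), and the EGR string GCGTGGGCG in none (0.198% of all). The AP-1 site TGACTCA was in 13 (17.8% against 16.4%), of which 5 were Trp63 and 5 Egr2 regions, and in 7 of the 20 lower regions, among them the printed Twist2 region. Its share among all 2-fold lower regions was not counted, so nothing can be read from the 7 of 20. The GATA string AGATAA was in 8 (11.0% against 13.2%). All these shares lie near those of all regions or rest on few regions. The printed Twist2 promoter stretch held none of these strings. The median GC content of the region centres was 44.8% for Trp63 and 54.5% for Tbx2, beside 48% for all shared regions.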

How the data were processed

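Single-cell ATAC-seq libraries (1 DOX, 1 EtOH) were made with the 10x Genomics kit, and the authors processed them with Cell Ranger ATAC (2.0.0 per the file headers) against mm10. The deposited values are raw counts of fragment ends per peak and nucleus, with peaks called separately in each library. Both ends of a fragment usually fall in 1 peak (13.8% and 14.3% of values were odd), so intervals were computed from counts divided by 2.

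Peaks overlapping by 1 bp or more were merged, and genes and start sites were taken from GENCODE M21 (mm10). Shared regions, 174940 in all, held 94.7% and 94.8% of the counts. Ratios carry exact conditional binomial intervals, levels exact Poisson intervals and shares of nuclei Clopper-Pearson intervals, all covering counting error only. A call needed 2-fold and 100 counts. Promoters were shared regions within 1 kb of a start site. Nuclei were clustered on 174867 shared regions outside the loci (latent semantic indexing, components 2 to 30, Leiden resolution 0.5) and named from marker genes. Doublets were not called. For each member the promoter, the 2 highest, 2 lowest and most counted regions were named, and others are named for their pattern after their values were seen. For the lists, the 3 highest and 3 lowest promoters were named, and Krt14 and Tbx3 were added after their values were seen. A gene of the lists is not reported here. The members and lists were chosen with earlier results of these data known. The code for ratios and intervals was tested on simulated data with known folds. Alternatives covered scaling, cell weighting, immune-like nuclei, deep or shallow nuclei, count minimum, fold, promoter, window and cluster resolution. Python 3.11.15, numpy 2.4.6, scipy 1.17.1, scikit-learn 1.9.0 and leidenalg 0.10.2 were used.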

Additional observations from a re-analysis of the deposited data

How the results depend on the processing

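The count of 20 lower regions was 13 with the median ratio of all regions set to 0, 11 of 71 outside the immune-like cluster and 12 of 40 within 10 kb of a start site. The count of 4 higher regions was 2 outside the immune-like cluster, 7 at 1.5-fold and 0 within 10 kb. Over all nuclei the internal Trp63 promoter ratio of -1.36 was -0.50 with a 2 kb promoter, through a further region. The 6 of 30 ratios within clusters whose interval excluded 0 became 2 of 42 at a Leiden resolution of 1. That resolution set apart a further hormone-sensing luminal-like cluster of 222 DOX and 2 EtOH nuclei. The count of 94 DOX nuclei in this class therefore holds for the main resolution only. Signs reversed at the Snai2 promoter (-0.12 to 0.0098 with the median ratio set to 0 and to 0.20 outside the immune-like cluster), and outside that cluster at the Id4 promoter (0.16) and the summed regions of Trp63 (0.017), Snai2 (0.069) and Id4 (0.15). The sum of Tbx2 was 0.039 in a 10 kb window. The values 0.0098, 0.017, 0.069 and 0.039 have intervals that span 0, so there a difference was lost rather than turned. Beyond the construction of these settings, the cause was not tested. Of the other values, 115 moved by less than their counting interval and 28 by more, of which the Tbx2 promoter (0.058 to -0.14 outside the immune-like cluster) and Egr2 within cluster 3 (-0.011 to 0.085 at a Leiden resolution of 1) changed sign. Some within-cluster values near 0 also changed sign. Counting nuclei with at least 20000 counts alone, an alternative chosen after seeing the data, left 4 higher and 20 lower regions. The upstream Trp63 promoter and the Twist2 promoter gave no ratio under the main setting. Scaling to promoter regions shifted the ratios over all nuclei by -0.089. No paired analysis was possible because a group holds only 1 library. Depth limits the internal Trp63 promoter, with 458 counts in all, other regions with few counts, and regions called in 1 library only, for which the other matrix has no value.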
